A study of Mus musculus with 14 samples.

Results

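Prostaglandins are lipid signals made from arachidonic acid, and the genes described here encode the enzymes that make prostaglandin E2 (PGE2), the receptors that read it, and the enzyme that removes it. The set held 8 genes: the cyclooxygenases Ptgs1 and Ptgs2, the PGE2 synthase Ptges, the PGE2 receptors Ptger2, Ptger3 and Ptger4, the prostacyclin receptor Ptgir, and Hpgd. They were read on every probe set whose only gene symbol was that of a member. This gave 12 probe sets for 7 of the 8 genes, out of 22626 probe sets on the array. Ptgs1 was not analysed here.

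RNA had been measured on Affymetrix MOE430A arrays, 2 for each of 7 groups, lettered A and B, or 14 in all. The groups were HSC from p53+/m mice of 12 mo, HSC from p53+/- mice of 12 mo, HSC from WT mice of 2, 6, 12 and 21 mo, and whole bone marrow (WBM) from WT mice of 2 mo. The labels gave all mice as C57Bl/6 males. By the methods, the WT mice carried CD45.1 and the p53 mice had been crossed back to C57Bl/6 over several generations. One field of the labels gave 2 months as the age of every sample, so the ages were taken from the sample titles and the treatment field. HSC were sorted as Hoechst side population cells that carried c-Kit and Sca-1 and lacked lineage markers. Each HSC array held a pool of several mice, amplified in 2 rounds of in vitro transcription. The p53+/m mice carry 1 WT allele and 1 allele that gives a truncated p53 protein, and the p53+/- mice carry 1 WT and 1 null allele, in every cell rather than in HSC alone. The targeted gene itself was not analysed here. The labels did not say whether arrays A and B came from separate cell preparations, so the tests measure the spread between arrays.

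In the synthesis of PGE2, a phospholipase frees arachidonic acid from the membrane, a cyclooxygenase turns it into the intermediate PGH2, and a terminal synthase turns that into PGE2. Ptgs2, or COX-2, is the inducible cyclooxygenase. The receptors EP2 (Ptger2) and EP4 (Ptger4) couple to the G protein that raises cyclic AMP (cAMP), while EP3 (Ptger3) mostly couples to the one that lowers it. Hpgd, hydroxyprostaglandin dehydrogenase, starts the breakdown of PGE2. In blood formation PGE2 is known for raising HSC number and aiding their homing and engraftment, work done in zebrafish and mouse.

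The promoters of the 4 genes that passed the test in the age or the tissue comparison are shown first, since they are the sequences of the genes that the results turn on. Each run covers 250 bases before and 50 bases after the start of the gene in RefSeq (GRCm38.p6), 300 bases in all, read 5′ to 3′ along the gene. Capitals mark matches to the motifs searched on both strands. These were TATAAA, the E box CACGTG, the cAMP response element (CRE) TGACGTCA, its core TGACG, and the NF-kB consensus by name. Ptgs2 lies at chr1:150099781-150100080 on the + strand, Ptger3 at chr3:157566626-157566925 on the + strand, Ptger4 at chr15:5244138-5244437 on the - strand and Hpgd at chr8:56294302-56294601 on the + strand.
Ptgs2: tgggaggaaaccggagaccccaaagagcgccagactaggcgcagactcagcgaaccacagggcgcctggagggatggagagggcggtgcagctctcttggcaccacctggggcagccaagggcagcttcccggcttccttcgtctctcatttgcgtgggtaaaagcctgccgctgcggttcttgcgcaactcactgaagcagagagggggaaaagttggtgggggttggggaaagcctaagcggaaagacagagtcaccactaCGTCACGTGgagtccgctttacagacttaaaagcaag
Ptger3: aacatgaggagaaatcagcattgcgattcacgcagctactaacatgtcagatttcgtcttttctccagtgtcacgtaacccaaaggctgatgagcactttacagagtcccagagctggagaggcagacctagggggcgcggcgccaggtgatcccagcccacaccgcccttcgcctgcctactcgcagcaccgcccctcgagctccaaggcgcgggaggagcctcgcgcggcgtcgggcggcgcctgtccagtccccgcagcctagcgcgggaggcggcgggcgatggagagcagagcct
Ptger4: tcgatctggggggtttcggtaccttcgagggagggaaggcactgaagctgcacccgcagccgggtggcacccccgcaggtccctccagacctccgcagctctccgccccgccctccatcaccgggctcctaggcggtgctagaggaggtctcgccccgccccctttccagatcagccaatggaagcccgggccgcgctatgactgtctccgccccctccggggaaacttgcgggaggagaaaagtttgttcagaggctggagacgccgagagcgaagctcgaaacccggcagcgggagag
Hpgd: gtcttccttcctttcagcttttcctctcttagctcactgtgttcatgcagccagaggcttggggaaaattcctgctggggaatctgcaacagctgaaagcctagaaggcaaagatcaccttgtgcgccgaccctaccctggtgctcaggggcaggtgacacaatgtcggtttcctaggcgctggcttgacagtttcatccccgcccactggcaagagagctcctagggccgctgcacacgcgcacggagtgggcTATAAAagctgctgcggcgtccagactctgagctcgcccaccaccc

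In the Ptgs2 promoter the capitals hold an E box that starts at position 17 after the gene start and a CRE core on the opposite strand that starts at position 14, and the matches overlap. The Hpgd promoter held TATAAA at position 5. Neither the Ptger3 nor the Ptger4 window held any of the motifs. Of 32851 promoters of the same length, 13.6% held TATAAA, 7.15% the E box, 1.79% the full CRE, 20.8% the core and 4.51% the NF-kB consensus. The 4 windows had 59.3% (Ptgs2), 64% (Ptger3), 67% (Ptger4) and 58% (Hpgd) G and C.

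Values are GC-RMA expression on the log2 scale, on which a difference of 1 is a 2-fold change. A probe set at log2 5 or above on at least 2 arrays is called detected here, which is a convention and not a test. By this convention 6 of the 12 probe sets were detected over the 14 arrays and 5 over the 12 HSC arrays. The genes detected in HSC were 4 of the 7: Ptgs2, Ptger2, Ptger3 and Ptger4. Levels of different genes come from different probes and are not set against each other. A gene with several probe sets is read on the one that was highest on average in WT HSC (8 arrays), and its other probe set is given beside it. In HSC against WBM this choice favours higher values in HSC, and the shares over all probe sets were taken without it. The average spans 2 to 21 mo, so in the age comparison the choice can favour probe sets that rise. For Ptgs2, Ptger3 and Ptger4 the chosen probe set was also the higher one on both arrays of 2 mo, and the second probe set of each did not pass with age.

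**Figure D1:**
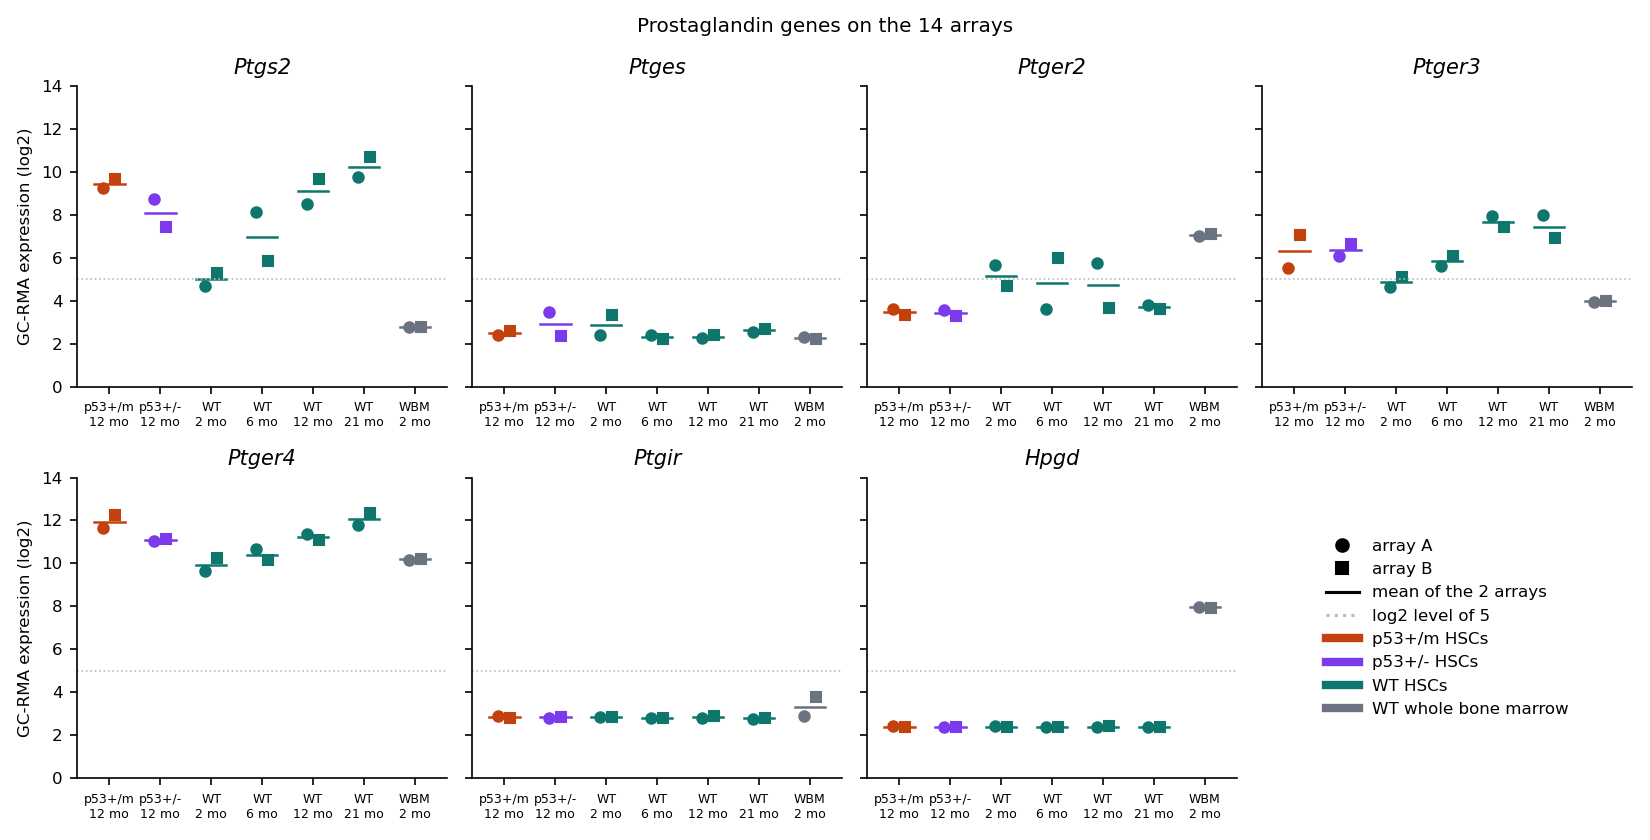
GC-RMA expression (log2) of the 7 measured genes on each of the 14 arrays, by group, with circles for array A, squares for array B and a bar for the mean of the 2 arrays. Ptgs2, Ptger3 and Ptger4 were higher at 21 mo than at 2 mo in WT HSC with no overlap of arrays, Hpgd stood at 7.95 and 7.98 in WBM only, and Ptges and Ptgir stayed under log2 5 on every array.

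The arrays were alike in overall level. Array medians lay between 3.93 and 4.10, 42.7% to 43.6% of probe sets per array reached log2 5, and the correlation of the 2 arrays of a group between 0.967 and 0.996. HSC marker genes (11 measured) averaged 8.95 to 9.83 per array in HSC and 6.72 to 6.75 in WBM, and no erythroid marker of 7 reached log2 5 in HSC, against 6 of 7 in WBM. Some markers of other lineages did reach it in HSC. At 2 mo these were 4 of 9 neutrophil and 2 to 4 of 8 monocyte and macrophage markers, against 9 and 6 in WBM. They also held 3 of 7 megakaryocyte and platelet, 1 of 7 B lineage, 1 of 6 T and NK cell and 1 of 8 endothelial and stromal markers. In WBM these 4 counts were 4, 4, 3 and 1 to 2. Control probe sets for RNA quality differed more between arrays. That for the 5′ end of 18S rRNA read 10.91 and 10.88 at 2 mo, 11.19 and 8.28 at 6 mo, 4.66 and 9.68 at 12 mo and 4.84 and 5.44 at 21 mo in WT HSC. Among WT HSC it was thus lowest on both arrays of 21 mo and on 1 array of 12 mo. The middle 18S probe set read 4.70 and 4.98 at 21 mo and 10.60 and 9.82 at 2 mo, and that for the 5′ end of beta-actin 11.15 and 10.55 at 21 mo and 9.21 and 9.30 at 2 mo, while the 3′ end of beta-actin read 14.26 and 14.10 at 21 mo and 13.81 and 13.95 at 2 mo.

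The age course asked which genes change in WT HSC between 2 and 21 mo. Among the members, Ptgs2, Ptger3 and Ptger4 rose with age and none fell. These are 3 of 12 probe sets and 3 of 7 genes. Of all probe sets, 1.32% rose, 1.51% fell and 2.83% changed in either direction (299, 342 and 641 of 22626). The members were chosen with earlier results of these data known, so the contrast of these shares is a description and no support. The test was limma's on a quadratic trend over the 8 WT HSC arrays, and a gene passed with an adjusted p below 0.05 and a change of at least 2-fold. The median log2 change was -0.02 over the 7 genes and -0.02 over all probe sets.

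Ptgs2, which carries the committed step of prostaglandin synthesis, read 4.71 and 5.30 at 2 mo, 8.12 and 5.87 at 6 mo, 8.52 and 9.69 at 12 mo and 9.75 and 10.70 at 21 mo (arrays A and B). Both arrays of each older age lay above both arrays of the age before, although the arrays of 6 mo differed by 2.25 between themselves. The fitted rise was 5.22 ± 0.77 (SE; 95% interval 3.33 to 7.12), or 37.4-fold (limma, adjusted p = 0.0331). The 2 mo mean of 5.01 stood at the edge of detection, which makes the size of the fold uncertain at its low end. The second Ptgs2 probe set lay between 3.53 and 5.67 on HSC arrays and did not show this rise (0.43, adjusted p = 0.776), so the probe sets of the gene disagree.

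Among the receptors, Ptger4 read 9.64 and 10.25 at 2 mo, 10.67 and 10.14 at 6 mo, 11.35 and 11.11 at 12 mo and 11.80 and 12.34 at 21 mo. Its 21 mo arrays lay above every other WT array, and the arrays of 2 and 6 mo overlapped. It rose by 2.16 ± 0.28 (SE; 95% interval 1.47 to 2.86), or 4.47-fold, with limma's adjusted p = 0.0261. The second Ptger4 probe set stayed between 4.44 and 5.35 on HSC arrays and was not called (0.46, adjusted p = 0.369).

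Ptger3, the receptor of opposite coupling, read 4.62 and 5.10 at 2 mo, 5.63 and 6.11 at 6 mo, 7.94 and 7.44 at 12 mo and 8.01 and 6.91 at 21 mo. The 12 and 21 mo arrays lay above all arrays of 2 and 6 mo and overlapped each other. It rose by 2.78 ± 0.44 (SE; 95% interval 1.70 to 3.87), or 6.88-fold (limma, adjusted p = 0.0372). Its other probe set stayed between 2.62 and 2.82 on every HSC array.

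Ptger2 went the other way without passing. It read 5.66 and 4.67 at 2 mo, 3.64 and 6.01 at 6 mo, 5.77 and 3.66 at 12 mo and 3.83 and 3.63 at 21 mo, with a fitted difference of -1.35 ± 0.93 (SE; 95% interval -3.64 to 0.94; limma, adjusted p = 0.514). The arrays of 6 mo and of 12 mo each held 1 value above and 1 below log2 5. A change of Ptger2 could therefore not be told from the spread between arrays.

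The remaining members gave low and flat values over age. Ptges, the synthase that completes PGE2, lay between 2.21 and 3.33 on the 8 WT HSC arrays (difference -0.16, adjusted p = 0.822). Ptgir lay between 2.78 and 2.91 on all 12 HSC arrays (difference -0.04, adjusted p = 0.729), and Hpgd between 2.38 and 2.43 (difference -0.02, adjusted p = 0.812). Values this low give no level for the transcript, and a change below detection would not be seen.

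**Figure D2:**
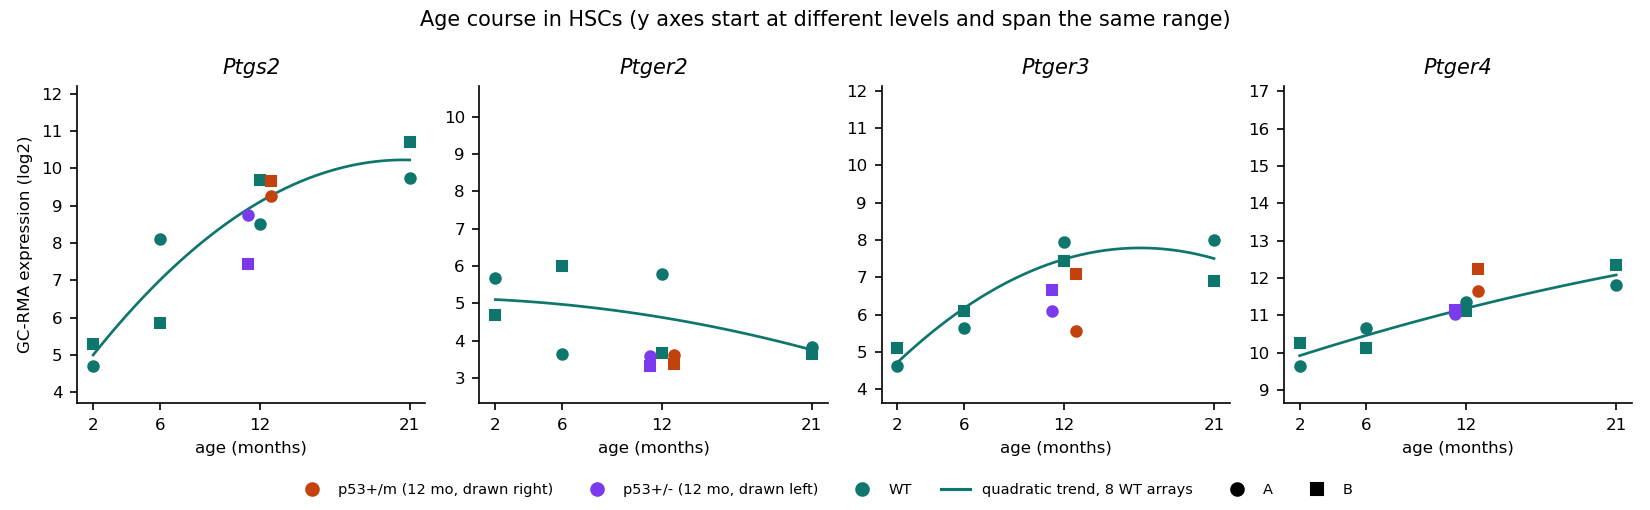
GC-RMA expression (log2) against age in months for the 4 members detected in HSC, with each array as a point and the quadratic trend over the 8 WT HSC arrays as a line; the 12 mo mutant arrays are drawn beside 12 mo. Ptgs2, Ptger3 and Ptger4 followed the trend with R squared of 0.893, 0.892 and 0.911, whereas Ptger2 had 0.283.

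The fitted curves placed the rises at different ages. The change to the top of the curve reached its midpoint at 6.27 mo for Ptger3 and 7.47 mo for Ptgs2, with tops at 16.6 and 20.7 mo, and the change of Ptger4 between 2 and 21 mo reached its midpoint at 10.4 mo on a curve that only rose. These ages come from 4 time points and are a description. In the steps between neighbouring ages, Ptgs2 differed by 1.99 (6 mo over 2 mo), 2.11 (12 mo over 6 mo) and 1.12 (21 mo over 12 mo). The same steps were 1.01, 1.82 and -0.23 for Ptger3 and 0.46, 0.82 and 0.84 for Ptger4. No member passed in any step, in which 0.053%, 0.119% and 0.217% of all probe sets did (12, 27 and 49). These counts turned on single arrays, with 45, 26 and 25 in the first step when 2 mo A, 2 mo B or 6 mo B was left out, 384 and 1049 in the second step when 12 mo A or 12 mo B was left out, and 2234 and 114 in the third step when 12 mo A or 12 mo B was left out. At an unadjusted p under 0.05 in limma, the steps held 1, 3 and 1 of the 7 genes.

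The 3 calls of the age comparison were close to the threshold. None of the 3 was called without 2 mo A, 2 mo B, 6 mo B, 21 mo A or 21 mo B, only Ptgs2 was called without 6 mo A (adjusted p = 0.0459), and all 3 were called without 12 mo A, 12 mo B or both. None was called with group means over the 8 arrays in place of the trend. The adjusted p from limma was then 0.0710 for Ptgs2, 0.0716 for Ptger3 and 0.0583 for Ptger4. Without 1 array the rise lay between 4.78 and 5.67 for Ptgs2, 2.31 and 3.34 for Ptger3, and 1.92 and 2.42 for Ptger4. With the mean of a gene's probe sets the rise was smaller, at 2.83 for Ptgs2, 1.38 for Ptger3 and 1.31 for Ptger4.

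**Figure D3:**
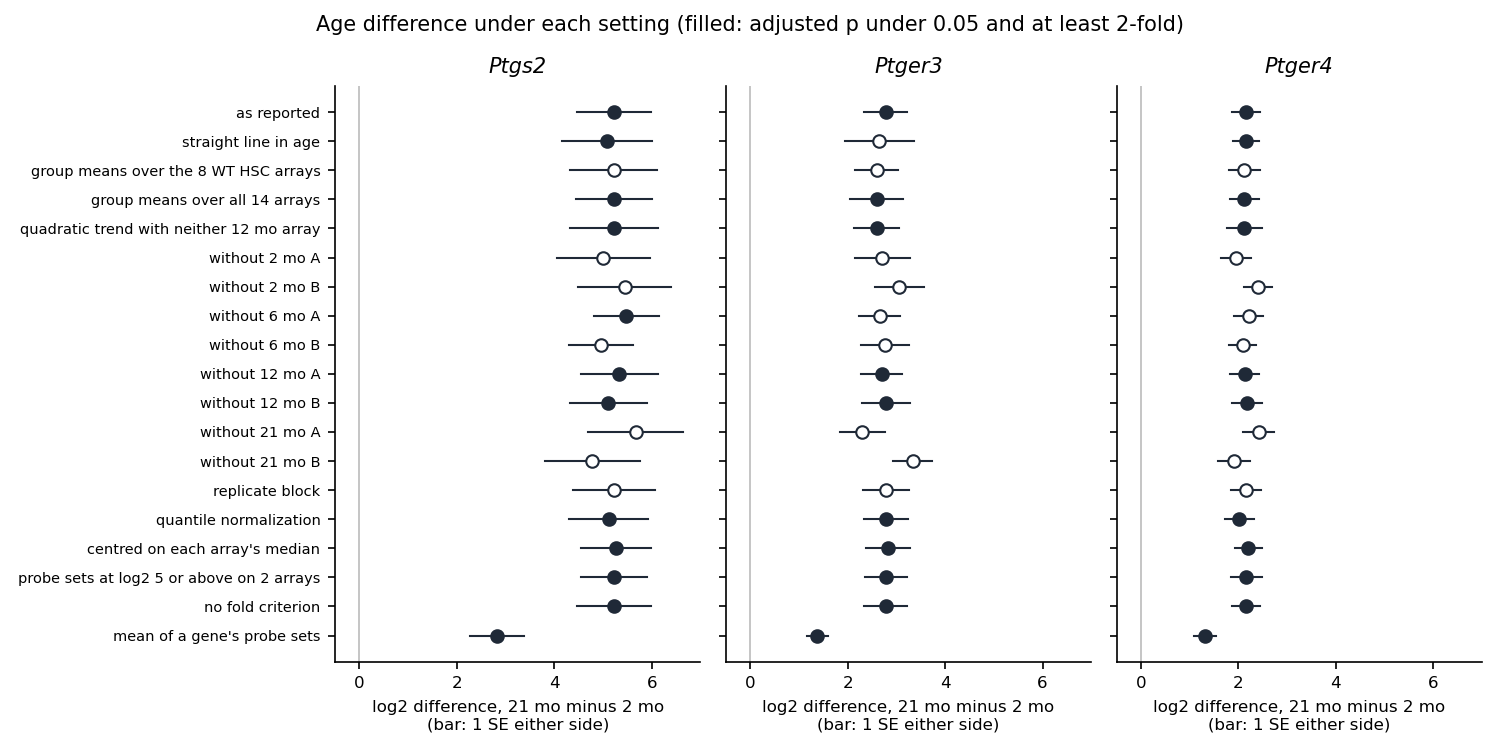
Fitted log2 difference of 21 mo over 2 mo for Ptgs2, Ptger3 and Ptger4 under each way of processing, with bars of 1 SE either side and filled points where the gene was called. The differences stayed at 1.31 or above in every setting, whereas most of the open points are fits that leave out 1 array of 2, 6 or 21 mo.

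Other measures moved with age on the same arrays. Neutrophil markers (9 measured) averaged 5.71 and 6.78 per array at 21 mo, with 5 to 6 of 9 at log2 5 or above, and 4.78 and 5.31 at 2 mo, with 4 of 9. Monocyte and macrophage markers (8 measured) averaged 6.46 and 6.73 at 21 mo, with 4 to 6 of 8 at log2 5 or above, and 4.88 and 5.46 at 2 mo, with 2 to 4 of 8. Their part in the result was not tested. The neutrophil gene Mmp8 was at 3.65 and 3.21 at 21 mo and at 2.19 on both arrays of 2 mo, and the monocyte receptor Csf1r at 4.89 and 5.40 at 21 mo and at 3.28 and 2.37 at 2 mo. In WBM, where the neutrophil markers averaged 13.0 to 13.2 and the monocyte markers up to 8.57, Ptgs2 averaged 2.78 and Ptger3 3.98, below every HSC array, whereas Ptger4 averaged 10.19, above the mean of 9.95 in HSC of 2 mo. HSC markers (11 measured) averaged 9.76 and 9.83 per array at 21 mo and 8.95 and 9.10 at 2 mo. Of these 11 genes, 8 were higher at 21 mo and 1 was called, and their median log2 change was 0.86. All 9 neutrophil markers were higher and 2 were called, with a median of 1.73. Of the 8 monocyte and macrophage markers, 7 were higher and 2 were called, with a median of 0.62. B lineage markers went the other way, as none of 7 was higher and 1 was called lower, with a median of -0.12. Among them Cd79b read 4.89 and 3.80 at 21 mo and 7.60 and 7.91 at 2 mo. No gene of the remaining marker lists was called with age. Over all probe sets 2.83% were called in either direction, and the median was -0.02.

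The 18S and beta-actin controls also differed between 2 and 21 mo, and their part in the result was not tested. Not all controls had a steady course over age. In WT HSC the 5′ end of beta-actin was lowest at 12 mo (8.91 and 7.76) and read 9.58 and 11.28 at 6 mo. The 5′ end of Gapdh read 8.94 and 9.57 at 2 mo and 9.56 and 8.35 at 21 mo, and its 3′ end 12.85 and 13.25 at 2 mo and 12.75 and 12.45 at 21 mo. Over the 8 WT HSC arrays, the 5′ 18S control had a Pearson correlation of -0.63 with Ptgs2, -0.82 with Ptger3 and -0.78 with Ptger4. With Ptger2 it was 0.002. These arrays fall into age groups, and no p is given. At 6 mo, arrays A and B read 11.19 and 8.28 in the 5′ 18S control. On the same arrays Ptgs2 (8.12 and 5.87) and Ptger4 (10.67 and 10.14) were higher on A, and Ptger3 (5.63 and 6.11) was lower on A. At 12 mo, arrays A and B read 4.66 and 9.68 in the same control. On the same arrays Ptgs2 was lower on A (8.52 and 9.69), while Ptger3 (7.94 and 7.44) and Ptger4 (11.35 and 11.11) were higher on A, by 0.50 and 0.24.

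The comparison of HSC with WBM, both from WT mice of 2 mo, asked which transcripts mark the stem cell fraction. In bulk RNA, fewer cells of a type and less RNA per cell cannot be told apart. Hpgd was lower in HSC, and no member was higher. This is 1 of 12 probe sets, where 11% of all probe sets were higher, 9.69% lower and 20.7% changed in either direction (2481, 2192 and 4673 of 22626), so the share of members called was near the background. The median log2 difference was -0.24 over the 7 genes and -0.02 over all probe sets.

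Hpgd read 2.41 on both HSC arrays, against 7.98 and 7.95 in WBM. The difference was -5.55 ± 0.03 (SE; limma, adjusted p = 4.29e-09), and since the HSC values lay far below the array medians and did not vary over 12 arrays by more than 0.04, the size is a lower limit of the difference. Hpgd stayed at this level in HSC of every age and genotype. Its other probe set was at 1.72 to 1.80 on all arrays, WBM included. The probe set that gave the difference ends in _s_at, a suffix for probe sets that can match more than 1 transcript. The WBM arrays also held all 9 neutrophil markers, 6 of 7 erythroid and 5 of 7 mast cell and basophil markers at log2 5 or above, against 4, 0 and 0 in HSC of 2 mo. The 18S control read 10.91 and 10.88 in these HSC, against 5.32 and 5.14 in WBM. The part of these measures in the result was not tested.

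The other members did not pass in this comparison. Ptger2 read 5.66 and 4.67 in HSC, against 7.01 and 7.10 in WBM, with no overlap but a wide interval (difference -1.89, 95% interval -4.29 to 0.51; limma, adjusted p = 0.275). Ptger2 was also lower on all 12 HSC arrays (3.32 to 6.01) than on both WBM arrays. Ptgs2 read 4.71 and 5.30 in HSC, against 2.79 and 2.77 in WBM (difference 2.23 ± 0.81 SE; limma, adjusted p = 0.115). The WBM values lay near the floor of the scale, and with the 4 arrays of 2 mo alone the call of Ptgs2 was gained (adjusted p = 0.0156). Ptger3 read 4.62 and 5.10 in HSC, against a mean of 3.98 in WBM (difference 0.88; limma, adjusted p = 0.215).

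Ptger4 was detected in HSC and in WBM, with a difference inside the spread between arrays. It read 9.64 and 10.25 in HSC, against 10.18 and 10.20 in WBM, and the arrays overlapped. The difference was -0.24 with a 95% interval from -0.97 to 0.48, which leaves room for a change of close to 2-fold downward. Ptges was at 2.40 and 3.33 in HSC, against 2.30 and 2.24 in WBM, and Ptgir at 2.78 to 2.91 on HSC arrays, against 2.89 and 3.80 in WBM. Neither was detected in any group. Without HSC 2 mo A, the difference of Ptges was 1.06 and was called (adjusted p = 0.00504), at levels below detection.

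**Figure D4:**
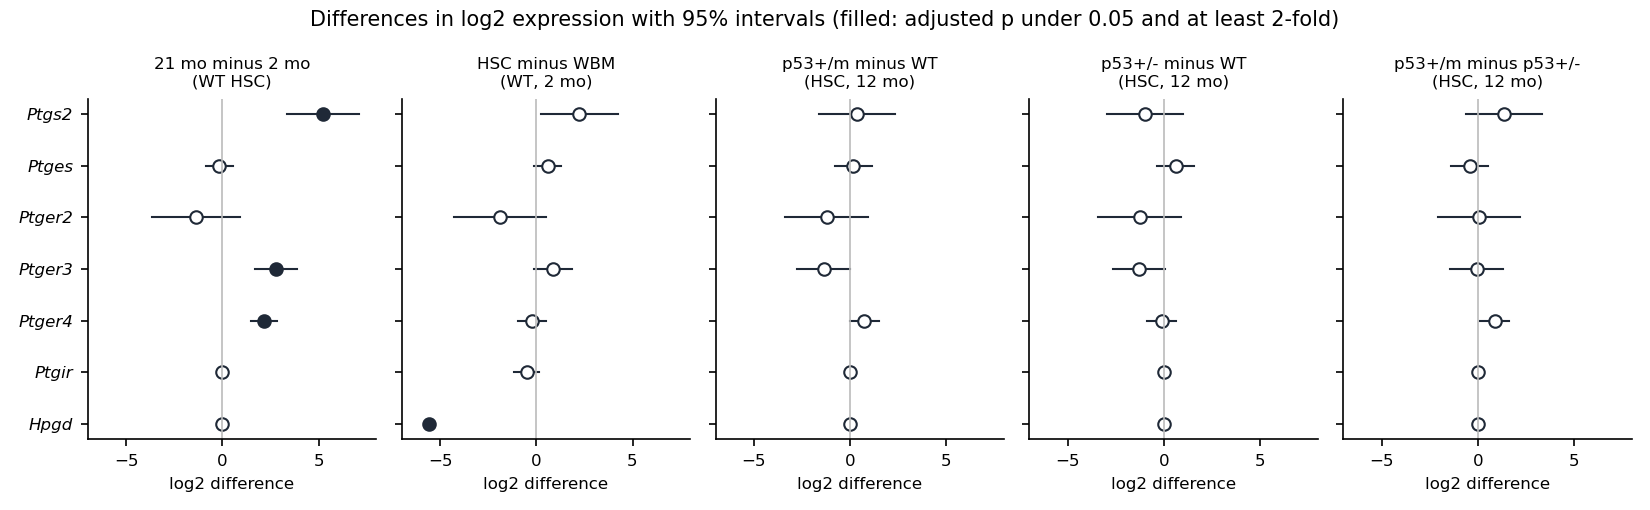
Log2 differences of the 7 measured genes in 5 comparisons, with 95% intervals from limma and filled points where adjusted p was under 0.05 and the change at least 2-fold. Filled points stand for Ptgs2 (5.22), Ptger3 (2.78) and Ptger4 (2.16) with age and for Hpgd (-5.55) in HSC against WBM, and no member is filled in the 3 genotype comparisons.

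The mutant HSC asked how altered p53 alleles change the profile at 12 mo. No member passed in the p53+/m against WT, the p53+/- against WT or the p53+/m against p53+/- comparison, where 0.446%, 0.164% and 0.194% of all probe sets did (101, 37 and 44; limma on 12 HSC arrays, group means). The counts turned on single arrays. Without WT 12 mo A they were 559 in p53+/m and 1052 in p53+/- against WT, without WT 12 mo B 1016 and 330, and without p53+/- A or B 77 and 68 in p53+/- against WT. For p53+/m against p53+/- they were 78 without p53+/- A and 73 without p53+/m A. No member was called in these fits either. At an unadjusted p under 0.05 the comparisons held 0, 0 and 1 of the 7 genes. The 3 comparisons share arrays, so their values are given side by side.

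Ptger4 was the gene with the unadjusted p under 0.05, in p53+/m against p53+/-. It read 11.65 and 12.25 in p53+/m HSC, 11.04 and 11.15 in p53+/- HSC and 11.35 and 11.11 in WT HSC. Both p53+/m arrays lay above the other arrays of 12 mo. The difference was 0.72 ± 0.32 (SE) for p53+/m over WT, -0.13 ± 0.32 for p53+/- over WT and 0.85 ± 0.32 for p53+/m over p53+/-. None passed, with adjusted p from limma of 0.517, 0.999 and 0.440 in this order. The 18S control read 5.71 and 7.18 in p53+/m, 8.92 and 7.96 in p53+/- and 4.66 and 9.68 in WT of 12 mo, and its part was not tested. Read on the age curve of WT HSC, the mean of p53+/m fell at 19.5 mo, that of p53+/- at 11.2 mo and that of WT at 12.3 mo. Array A of p53+/m alone fell at 16.4 mo, and array B lay beyond the 21 mo end of the curve. The placing is thus loose, and it carries no test. Ptgs2 and Ptger3 were not placed, and their curves turn, at 20.7 and 16.6 mo. For Ptger3, the means of p53+/m (6.32) and p53+/- (6.38) lay between the fitted values of 6 mo (6.17) and 12 mo (7.48). For Ptgs2, the fitted value of 12 mo was 9.10, with p53+/m above it (9.46) and p53+/- below it (8.10).

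Ptgs2 read 9.25 and 9.67 in p53+/m HSC, 8.76 and 7.44 in p53+/- HSC and 8.52 and 9.69 in WT HSC. The p53+/m values lay within the WT range (difference 0.35, 95% interval -1.63 to 2.34), and p53+/- overlapped WT (difference -1.01, 95% interval -2.99 to 0.98; adjusted p = 0.905). The p53+/m arrays lay above the p53+/- arrays by 1.36 in the mean, with a 95% interval from -0.63 to 3.34 (limma, adjusted p = 0.777). The interval for p53+/m against WT alone allows a change of several fold in either direction.

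Ptger3 was lower on all mutant arrays than on both WT arrays of 12 mo. It read 5.55 and 7.08 in p53+/m HSC, 6.09 and 6.67 in p53+/- HSC and 7.94 and 7.44 in WT HSC. The difference from WT was -1.37 (95% interval -2.74 to 0.01; limma, adjusted p = 0.485) in p53+/m and -1.31 (95% interval -2.68 to 0.07; adjusted p = 0.645) in p53+/-, and neither passed. Ptger2 was undetected in both mutants, at 3.61 and 3.36 in p53+/m and 3.58 and 3.32 in p53+/-, against 5.77 and 3.66 in WT, where array A alone was above log2 5.

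Taken over all groups, each detected member had its own order of mean levels. For Ptger4 the order was WT 21 mo (12.07), p53+/m (11.95), WT 12 mo (11.23), p53+/- (11.09), WT 6 mo (10.40), WBM (10.19) and WT 2 mo (9.95). Arrays overlapped between neighbours in this order except from p53+/m to WT 12 mo and from p53+/- to WT 6 mo. For Ptgs2 the order was WT 21 mo (10.22), p53+/m (9.46), WT 12 mo (9.11), p53+/- (8.10), WT 6 mo (6.99), WT 2 mo (5.01) and WBM (2.78), and the last 2 steps and the first did not overlap. For Ptger3 it was WT 12 mo (7.69), WT 21 mo (7.46), p53+/- (6.38), p53+/m (6.32), WT 6 mo (5.87), WT 2 mo (4.86) and WBM (3.98). Here the arrays did not overlap from WT 21 mo to p53+/-, from WT 6 mo to WT 2 mo and from WT 2 mo to WBM.

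Other genes followed the detected members closely over the 12 HSC arrays. The 3 with the highest Pearson correlation, out of 6459 other detected genes, were Cavin2 (0.95), Jam2 (0.95) and Selp (0.94) for Ptgs2. Cavin2 is a protein of caveolae, Jam2 a junctional adhesion molecule, and Selp is P-selectin, an adhesion receptor of platelets and endothelium. For Ptger4 they were Rragc (0.96), a small GTPase of amino acid sensing, Jam2 (0.94) and the adaptor Lcp2 (0.93). For Ptger3 they were Memo1, Cpne2 and Rab28 (0.89 each), and for Ptger2 Il1r2 (0.91), Hes6 (0.90) and Tmem101 (0.87). The points share age and genotype groups, the highest of many correlations is high by choice, and no p is given.

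The lists here and below were chosen with earlier results of these data known, so the shares of their genes are a description. The rest of the prostanoid pathway was read on lists of 14 further synthesis genes, 5 receptors and 4 genes of transport and breakdown. With age, Prxl2b alone of these genes passed, and it fell. Prxl2b encodes a synthase of prostaglandin F2α, and read 6.50 and 7.31 at 2 mo, 5.78 and 6.52 at 6 mo, 5.49 and 4.32 at 12 mo and 4.55 and 4.06 at 21 mo. Its fitted change was -2.67 ± 0.47 (SE; limma, adjusted p = 0.0459), and the call was lost without any 1 of the 6 arrays of 2, 6 and 21 mo (adjusted p = 0.0827 to 0.197). The phospholipase Pla2g4a, which frees arachidonic acid and is named here after its values were seen, read 10.02 and 9.97 at 21 mo and 8.49 and 8.24 at 2 mo (1.53, adjusted p = 0.0668). Of the other receptors, the thromboxane receptor Tbxa2r was detected, at 6.05 to 6.64 on all arrays, while Ptger1, Ptgdr, Ptgdr2 and Ptgfr were below log2 5 on all 14. The prostacyclin synthase Ptgis, the PGD2 synthase Hpgds and the second PGE2 synthase Ptges2 lay between 2.11 and 2.86 throughout.

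In HSC of 2 mo against WBM, 4 of the 14 synthesis genes were higher and none lower, where 11% of all probe sets were higher and 20.7% changed in either direction. Each gene of the lists was read on its probe set highest in WT HSC, here and below. This choice favours higher in HSC and was not made for the shares over all probe sets. The median log2 difference was -0.02 over the 14 genes and -0.01 over all genes. The 4 were Pla2g6, a phospholipase (3.49, adjusted p = 0.0185), Cbr1, a carbonyl reductase that can turn PGE2 into prostaglandin F2α (2.75, adjusted p = 4.19e-05), the thromboxane synthase Tbxas1 (2.19, adjusted p = 7.63e-05) and Prxl2b (1.79, adjusted p = 0.0499). Transport and breakdown split. The uptake carrier Slco2a1 (1.57) and the reductase Cbr3 (1.58) were higher in HSC, both at under log2 5 there, and the reductases Ptgr1 (-2.77) and Ptgr2 (-2.69), which act after Hpgd, were lower. Ptgr1 lost its call without HSC A, WBM A or WBM B (adjusted p = 0.0587 to 0.0678), and Slco2a1 with the mean of its probe sets, at a difference of 0.51. None of the 5 other receptors passed. Pla2g6 and Prxl2b lost their calls when any 1 of the 4 arrays of 2 mo (HSC A or B, WBM A or B) was left out, with adjusted p from 0.0630 to 0.0989 and from 0.0713 to 0.228.

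The leukotriene branch, which also starts from arachidonic acid, had 8 measured genes. With age Lta4h, the hydrolase that makes leukotriene B4, fell by 1.08 on the log2 scale (9.36 and 9.32 at 21 mo, 10.34 and 10.41 at 2 mo; limma, adjusted p = 0.0338), and none rose. Without 2 mo A or B, 6 mo A, or 21 mo A or B, the call of Lta4h was lost (adjusted p = 0.0606 to 0.145), as it was with group means over the 8 arrays (0.0724) and with the mean of its probe sets, at a change of -0.62 (0.0806). In HSC against WBM, Cysltr2 was higher (2.00) and Alox15 (-5.73), Ltb4r1 (-5.46) and Alox5ap (-1.08) were lower, 1 and 3 of 8 genes against 11% and 9.69% of all probe sets. Alox15 read 1.95 and 1.93 in HSC, against 7.35 and 7.99 in WBM. The lipoxygenase and the leukotriene B4 receptor Ltb4r1 were, like Hpgd, undetected on all HSC arrays. Cysltr2 lost its call when any 1 of the 4 arrays was left out (adjusted p = 0.0825 to 0.129), nor Alox5ap without HSC A, HSC B or WBM B (0.0511 to 0.0637).

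Below the cAMP-raising receptors, none of 19 signaling genes and none of 9 cAMP-responsive genes passed with age. The early-response genes Fos and Nr4a1 had adjusted p under 0.05 with less than a 2-fold change (0.99, adjusted p = 0.0238, and 0.54, adjusted p = 0.0445). In HSC against WBM, 5 of the 9 cAMP-responsive genes were higher and none lower, where 11% of all probe sets were higher: Nr4a1 (6.86), Nr4a2 (6.79), Crem (5.36), Fos (4.08) and Per1 (3.25). The genes were read on the probe set highest in WT HSC, a choice not made for the 11%. Nr4a1 read 11.46 and 11.47 in HSC, against 4.57 and 4.63 in WBM. Over the 9 genes the median log2 difference was 3.25. The 5′ 18S control read 10.91 and 10.88 in these HSC, against 5.32 and 5.14 in WBM, and the HSC had been sorted. Whether cAMP, RNA quality or sorting had a part in these differences was not tested. Of the 19 signaling genes, 5 were called, a share near the 20.7% of all probe sets, with a median of -0.01. Adcy9 (3.25), Crtc2 (2.72) and Prkar1a (1.88) were higher and Arrb1 (-2.28) and Arrb2 (-1.62), the arrestins that quiet receptors, were lower. Arrb1 and Arrb2 lost their calls when any 1 of the 4 arrays was left out (adjusted p = 0.0910 to 0.121 and 0.0552 to 0.103). Adcy9 lost its call without HSC B (0.0538) or WBM A (0.0501), and with the mean of its probe sets, where the difference was 0.80 in place of 3.25.

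**Figure D5:**
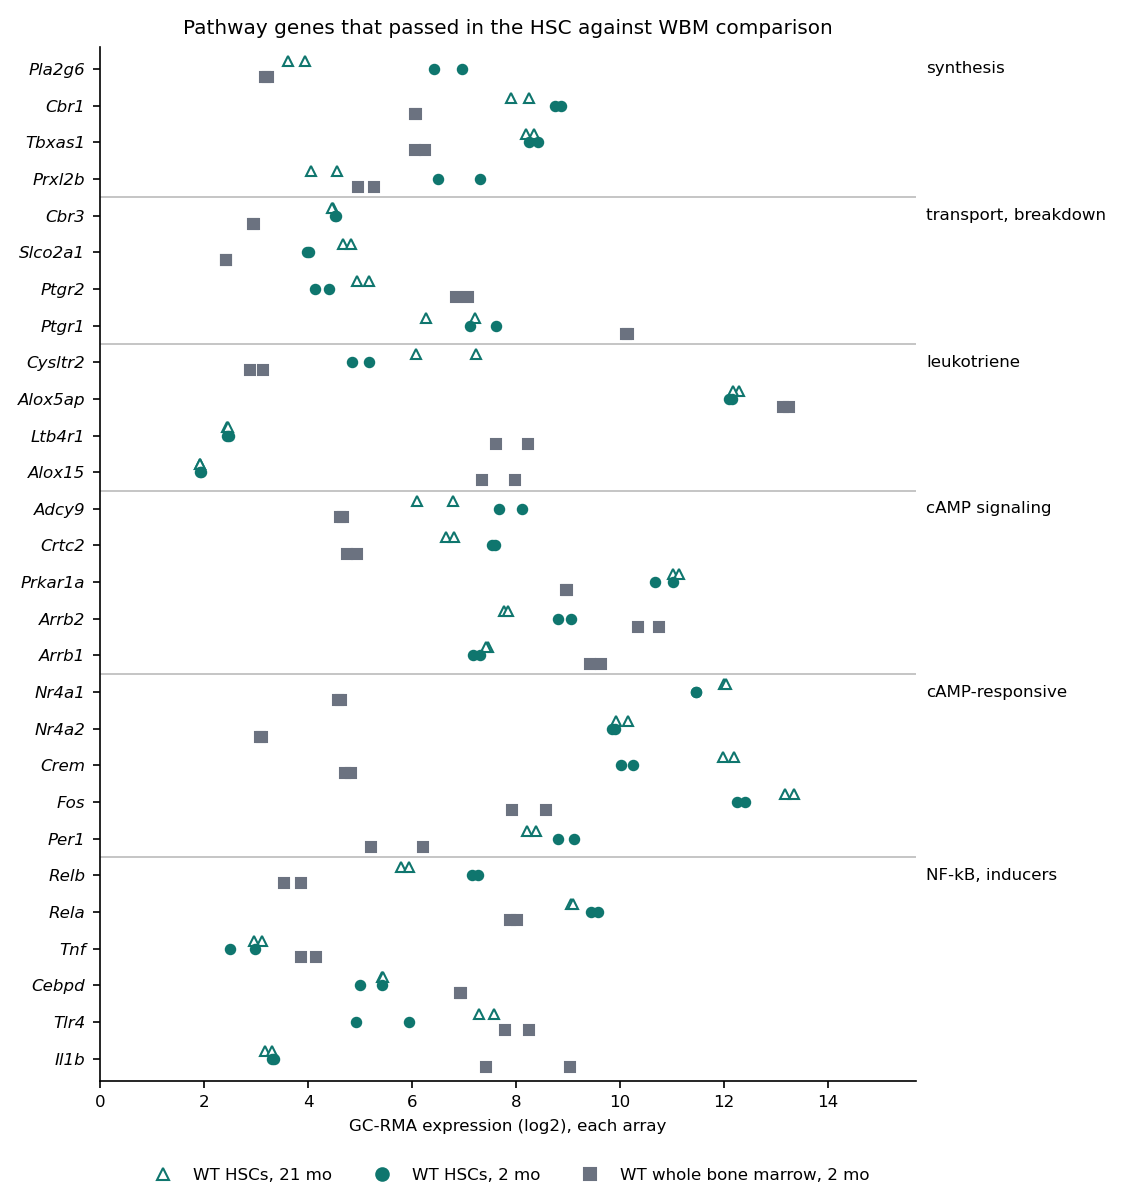
GC-RMA expression (log2) on each array of WT HSC of 21 mo and 2 mo and of WT WBM of 2 mo, for the genes of the 6 other pathway lists that passed in HSC against WBM at 2 mo. Nr4a1, Nr4a2, Crem, Fos and Per1 lay higher on every HSC array shown, and Alox15 and Ltb4r1 lower.

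The inducers of Ptgs2 were read on a list of 14 genes of the NF-kB pathway. None passed with age. In HSC against WBM, Relb (3.51) and Rela (1.57) were higher, and Il1b (-4.90), Tlr4 (-2.59), Cebpd (-1.73) and Tnf (-1.27) were lower, 2 and 4 of 14 genes against 11% and 9.69% of all probe sets. With the mean of its probe sets Cebpd was at -0.87 and not called. The cytokine gene Il1b read 3.17 to 3.44 on all 12 HSC arrays, against 9.04 and 7.43 in WBM. Tlr4 was not called without HSC A (adjusted p = 0.0626) or WBM A (0.0787). In the genotype comparisons, 1 gene of all these lists passed. Cxcr4, the homing receptor listed among the cAMP-responsive genes, read 5.73 and 5.97 in p53+/m HSC and 7.02 and 7.45 in p53+/- HSC, against 9.67 and 9.48 in WT HSC. Its differences from WT were -3.73 (limma, adjusted p = 0.0045) and -2.34 (adjusted p = 0.0239), and neither was called in a fit of the 12 mo arrays alone (0.125 and 0.191).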

How the data were processed

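RNA of 14 samples, 2 arrays in each of 7 groups, had been measured on Affymetrix MOE430A arrays. The deposited values are log2 expression per probe set, which the authors computed from the scanned intensities with GC-RMA after reading the images with MAS 5.0. GC-RMA corrects the background by probe GC content and normalizes between arrays, so that low values are compressed towards a floor. The GC-RMA version is not given in the sources used here, nor is whether all arrays were processed together.

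The values were used as deposited for 22626 probe sets, without 64 controls. Probe sets were named from the platform annotation, which gave 1 symbol to 20380 of them. R 4.3.3 and limma 3.58.1 (functions lmFit and eBayes) tested all 22626 probe sets, with Benjamini-Hochberg adjustment, and a probe set passed with an adjusted p below 0.05 and at least a 2-fold change. Age was fitted as a quadratic trend over 8 WT HSC arrays, HSC against WBM as group means over 10 WT arrays, and genotypes and age steps as group means over 12 HSC arrays. The fit was tested on simulated data. Alternatives were another trend, other arrays in the fit, each array left out, a replicate block, 2 other scalings, a filter, no fold criterion and the mean of a gene's probe sets.

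The 8 genes and all gene lists were chosen with earlier results of these data known. Named are all members and, of the other lists, genes past the threshold in the age, tissue or genotype comparisons, at most 4 per list, comparison and direction, with all 5 that passed named in 1 list, and the synthases and receptors of the other prostanoid lists in ranges. Pla2g4a, Fos and Nr4a1 in the age comparison were named after their values were seen. The likest genes are the 3 with the highest correlation over HSC arrays. Promoters are from RefSeq (GRCm38.p6), in which all 8 genes were matched. With 2 arrays a group, their number limits the precision.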

Additional observations from a re-analysis of the deposited data

How the results depend on the processing

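The age count of 3 genes became 0 with group means over the 8 WT HSC arrays and 0 with the letters A and B as a replicate block (adjusted p = 0.0637 for Ptgs2, 0.0680 for Ptger3 and 0.0524 for Ptger4), and lay between 0 and 3 with 1 array left out; no call of a member was lost to another scaling. With a straight line in age, Ptger3 was lost (adjusted p = 0.0774). The mean of a gene's probe sets kept the 3 calls at smaller changes of 2.83 for Ptgs2, 1.38 for Ptger3 and 1.31 for Ptger4. The count over all probe sets moved between 23 and 2218 around 641 with age, and between 0 and 1016 around 101, 0 and 1052 around 37, and 0 and 109 around 44 in p53+/m against WT, p53+/- against WT and p53+/m against p53+/-. In HSC against WBM the count of 1 became 2 with the 4 arrays of 2 mo only and 2 with probe sets at log2 5 or above on 2 arrays (Ptgs2, adjusted p = 0.0322, in the filtered fit), and 1 to 2 with 1 array left out, where Ptges was gained without HSC 2 mo A. Hpgd stayed called in all 12 alternatives, between -5.61 and -2.79.

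In the genotype and age step comparisons no member was called in any alternative. With 1 array left out, uncalled differences changed sign over ranges from -0.55 to 0.065 for Ptger4 in HSC against WBM, -0.23 to 0.94 for Ptgs2 in p53+/m against WT, -0.83 to 0.70 for Ptger3 in p53+/m against p53+/-, -1.53 to 0.84 for Ptger2 in 6 mo against 2 mo, -1.29 to 1.08 for Ptger2 in 12 mo against 6 mo and -0.78 to 0.33 for Ptger3 in 21 mo against 12 mo. Of the 28 further pathway genes called in HSC against WBM, 17 were called in every alternative, and none changed sign; Prxl2b lost its age call also under both other scalings (adjusted p = 0.0580 and 0.0501), the replicate block (0.0843) and group means over the 8 arrays (0.0945), and its call in HSC against WBM in 8 of 12 alternatives. The cause was not tested.

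The differences of A from B correlated between groups at -0.31 to 0.16, with 2 of 21 pairs of groups over 0.1. This gave no clear sign that the letters pair the arrays, and the labels do not settle it. The replicate block changed no other call of a member. Signal limits Ptges, Ptgir and Hpgd in HSC, and Ptgs2 and Ptger3 in WBM, to values near the floor of the scale.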
